A study of Macaca mulatta with 24 samples.

Results

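The keratins and cell junction genes of epithelia were followed in omental white adipose tissue (WAT) of 24 female rhesus macaques, the fat of the visceral apron that hangs from the stomach. The set held 10 named genes, namely the keratins *KRT7*, *KRT8*, *KRT18*, *KRT19* and *KRT5*, the tight junction genes *TJP3*, *CLDN1* and *CLDN15*, the adherens junction gene *CDH1*, and *MISP*. The members were chosen by fold changes and calls already seen in the *T* + *WSD* against *C* comparison of these same libraries, so the members' differences in that comparison are given as a description, without a test. Each symbol was matched to an identifier of the table of 32386 genes. For 9 of the 10 this gave a gene, all 9 passed the filter on low counts, and they stand among 15207 genes tested, whereas *KRT5* was not analysed here.

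Young females carried either cholesterol control implants or testosterone-releasing implants for 3 years and ate either monkey chow or a high-fat western-style diet (WSD). The groups were controls on chow with cholesterol implants (*C*), testosterone on chow (*T*), cholesterol implants on the diet (*WSD*) and both treatments together (*T* + *WSD*), with 6 animals in each. The age on the labels is 4 years, and the study's methods state an older age at the biopsy. The methods also state that the 24 animals were selected to represent the fat mass and insulin findings of larger groups, so they are not a random draw from those groups. Total RNA depleted of ribosomal RNA was sequenced from 1 biopsy homogenate per animal, which mixes all cell types of the depot. In such bulk tissue, fewer cells of a type and less RNA per cell cannot be told apart.

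Keratins are the intermediate filament proteins of epithelia, and every filament is built from pairs of a type I and a type II chain. *KRT8* and *KRT18* are the main pair of single-layered epithelia, where *KRT7* (type II) and *KRT19* (type I) are often found with them. Tight junctions seal neighbouring cells through strands of claudins, which are tied to actin by scaffold proteins such as the one encoded by *TJP3* (ZO-3). Adherens junctions below them hold cells together through E-cadherin, the product of *CDH1*, and its catenins. In the omentum these genes are known from the mesothelium, the flat cell layer that covers the peritoneal surface and carries simple keratins together with vimentin.

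The libraries held 6899185 to 28270776 counts, with a median of 20630513. In 8 libraries, 2 in each group, a single unnamed identifier (ENSMMUG00000038258) took 9.92% to 54.7% of all counts, against 0.879% to 2.51% in the other 16. The 8 libraries were therefore left with 3125930 to 15799235 counts on the remaining genes and measured the rarer members less precisely. None of the 60 pairs of libraries within a group held identical values. Levels are given as CPM, the usual share of a library's counts that fall on a gene, after scaling by the trimmed mean of M values (TMM). They were not divided by transcript length, so they compare animals for 1 gene and not 1 gene with another. Adipocyte markers were present throughout, with a summed level of 7 genes between 2661 and 20918 CPM.

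*KRT8*, the type II chain of the main simple-epithelial pair, averaged 173 ± 56.2 CPM over the controls, 129 ± 75.6 with testosterone alone, 104 ± 76.8 on the diet alone and 24.9 ± 17.3 under both (mean ± SD, n = 6 animals each). The *KRT8* level ran from 78.1 through a median of 181 to 231 CPM in *C*, from 40.7 through 119 to 260 in *T*, from 12.1 through 101 to 211 in *WSD*, and from 3.11 through 22.5 to 55.0 in *T* + *WSD*. All 6 *T* + *WSD* animals lay below all 6 *C* animals, while the single-treatment groups overlapped *C* and each other. The fitted log2 fold change of *KRT8* in *T* + *WSD* against *C* was -2.76 ± 0.58 (SE), a level 6.76-fold lower.

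*KRT18*, the type I partner of *KRT8*, ran from 41.4 through a median of 69.7 to 233 CPM in *C*, from 21.1 through 62.1 to 99.9 in *T*, from 6.27 through 55.4 to 109 in *WSD*, and from 1.13 through 11.6 to 26.9 in *T* + *WSD*. Again every *T* + *WSD* animal was below every *C* animal, and the fitted log2 fold change was -3.15 ± 0.60. *KRT18* counts in *T* + *WSD* reached as low as 4 reads in animal 8. *KRT19*, a type I keratin with almost no tail domain, ran from 195 through 263 to 450 CPM in *C*, from 97.4 through 224 to 447 in *T*, from 26.9 through 122 to 283 in *WSD*, and from 5.94 through 52.2 to 64.7 in *T* + *WSD*. For *KRT19* the *T* + *WSD* animals lay below both all *C* and all *T* animals, with a log2 fold change of -2.66 ± 0.50 against *C*.

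*KRT7*, the second type II keratin analysed, was rare and behaved differently from the others in *T*. It ran from 0.821 through 2.01 to 4.04 CPM in *C*, from 0.436 through 3.08 to 17.2 in *T*, from 0.204 through 0.899 to 6.22 in *WSD*, and from 0 through 0.189 to 1.01 in *T* + *WSD*. In *T* the animals fell on both sides of the controls, 3 above all of *C* and 3 below. Its log2 fold change in *T* + *WSD* against *C* was -2.62 ± 0.96, the largest standard error of the members.

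The claudins went separate ways. *CLDN1*, a sealing claudin best known from the skin barrier, ran from 160 through 194 to 304 CPM in *C*, from 85.8 through 105 to 324 in *T*, from 29.0 through 114 to 305 in *WSD*, and from 22 through 67.2 to 116 in *T* + *WSD*. In both single-treatment groups most animals were below all controls, 4 of 6 in *T* and 5 of 6 in *WSD*, but 1 animal in each was above them all. The *T* + *WSD* animals did not overlap *C*, with a log2 fold change of -1.70 ± 0.45. *CLDN15*, which forms cation pores in the intestine, ran from 74.5 through 88.8 to 108 CPM in *C*, from 71.5 through 82.1 to 91.6 in *T*, from 81.5 through 87.4 to 112 in *WSD*, and from 67.7 through 73.8 to 80.6 in *T* + *WSD*. The *CLDN15* groups lay close together, with 4 of 6 *T* + *WSD* animals below all controls. Its coefficient of variation in *C* was 14.5%, against 25.1% to 153% for the other 8 members, and its log2 fold change in *T* + *WSD* against *C* was -0.32 ± 0.10.

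A second identifier (ENSMMUG00000046997) carries the *CLDN15* name in the study's supplementary gene lists, whereas the gene name table gives it to ENSMMUG00000007839, which had more counts and is the one used above. The second identifier ran from 19.1 through 41.9 to 167 CPM in *C* and from 11.3 through 12.8 to 25.6 in *T* + *WSD*. Its log2 fold change between these groups was -1.91 ± 0.48, so the size of the *CLDN15* difference depends on which identifier is taken.

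*TJP3*, the scaffold of the tight junction plaque, was close to the limit of detection. It ran from 0.439 through 0.667 to 10.9 CPM in *C*, from 0.406 through 0.791 to 2.56 in *T*, from 0.482 through 1.17 to 1.55 in *WSD*, and from 0 through 0.146 to 0.412 in *T* + *WSD*. No *T* + *WSD* library held more than 10 *TJP3* reads and 2 held none, whereas animal 1 of *C* alone held 193. A count of 0 allows up to 3 reads, which is 0.848 CPM in *T* + *WSD* animal 8 and therefore above the *TJP3* level of 4 of the 6 controls. This limit covers counting error only. The fitted log2 fold change of -3.70 ± 0.85 against *C* became -2.39 without *C* animal 1, still the same direction.

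*CDH1*, encoding E-cadherin, ran from 10.7 through 35.9 to 102 CPM in *C*, from 9.84 through 16.8 to 61.0 in *T*, from 10.8 through 20.3 to 41.1 in *WSD*, and from 3.11 through 10.1 to 25.0 in *T* + *WSD*. The groups overlapped, and the log2 fold change of *T* + *WSD* against *C* was -1.94 ± 0.52 with all animals and -1.47 without *C* animal 1. *MISP*, which links the actin cortex to the mitotic spindle, ran from 1.43 through 2.44 to 12.9 CPM in *C*, from 0.762 through 2.04 to 11.2 in *T*, from 0.977 through 2.63 to 3.66 in *WSD*, and from 0 through 0.558 to 1.01 in *T* + *WSD*. Here the *T* + *WSD* and *C* animals did not overlap, with a log2 fold change of -2.90 ± 0.68.

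**Figure D1:**
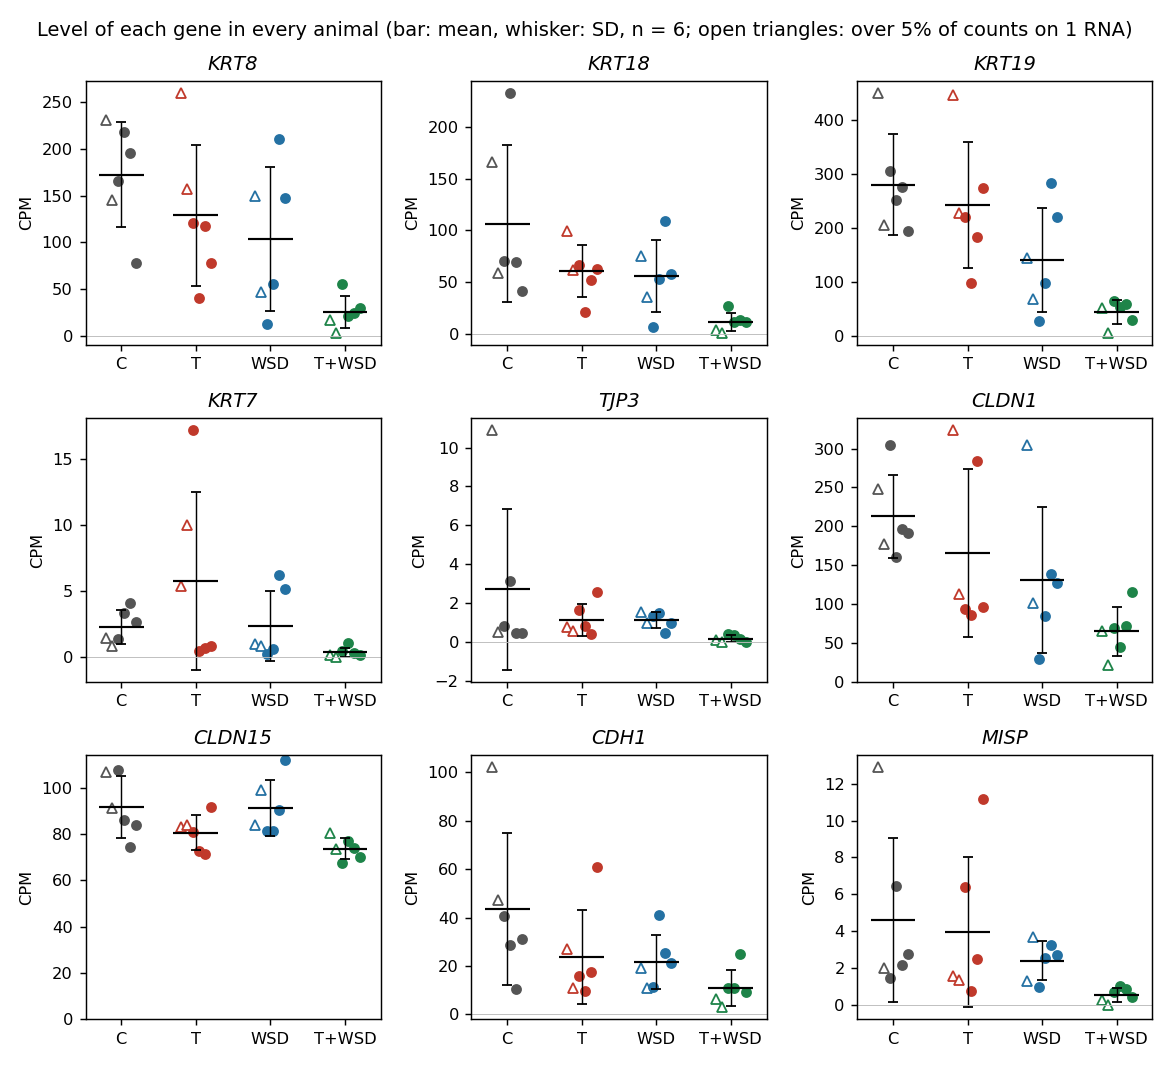
CPM (TMM-scaled, linear axis, scale set per gene) of the 9 genes in each of the 24 animals by group, with the mean as a bar and the SD as a whisker (n = 6 per group). Open triangles mark the 8 libraries in which 1 RNA took over 5% of the counts. In *KRT8*, *KRT18*, *KRT19*, *TJP3*, *CLDN1* and *MISP* every *T* + *WSD* animal sits below every *C* animal, and *CLDN15* hardly moves. For *TJP3* this order is not resolved at the depth of *T* + *WSD* animal 8.

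Of the 9 members, 6 did not overlap between *T* + *WSD* and *C*, with *T* + *WSD* lower, where 4.12% of all tested genes were separated that way. Among the 6, the separation of *TJP3* is not resolved, because of the limit on 0 reads given above. A differentially expressed gene (DEG) was one with a fold change over 1.5 and an adjusted p under 0.05. By that rule 7 of 9 were lower in *T* + *WSD*, all but *KRT7* and *CLDN15*, against a background of 5.29% of genes called lower and 4.72% called higher. Since this comparison guided the choice of members, nothing is read from these counts. The members nearest the limits were *KRT7*, left out by its adjusted p despite a 6.13-fold lower level, *CLDN15*, left out by a fold of 1.24, and *CDH1*. Of the 7, *CDH1* had the largest adjusted p, and its call was lost without *C* animal 1. *CLDN1* had the smallest fold of the 7, at 3.26.

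The differences held in direction in the libraries of lower and of higher depth alike, though their size varied. In the 16 libraries with little of the unnamed RNA (4 per group), the log2 fold changes against *C* were -2.33 for *KRT8*, -2.70 for *KRT18*, -2.31 for *KRT19*, -2.65 for *KRT7*, -2.36 for *TJP3*, -1.48 for *CLDN1*, -0.27 for *CLDN15*, -0.97 for *CDH1* and -2.07 for *MISP*. With these 16 libraries 0 of the 9 met the DEG definition in edgeR, where the whole table fell from 1522 to 78 DEGs. Within the other 8 libraries (2 per group), the difference of mean log2 CPM was -4.64 for *KRT8*, -5.43 for *KRT18* and -4.11 for *KRT19*. In *CDH1* it was -3.95 there and -0.95 in the 16 others, a wide gap. With the library type as a term of the fit, 7 of 9 met the definition, and *CDH1* stood at -2.0.

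Testosterone alone and diet alone were asked next, each against the same *C* animals that the choice of members used. For the diet, edgeR's quasi-likelihood test called 0 of 9 members, 1 had an unadjusted p under 0.05, and DESeq2 called 0. The edgeR background was 0% DEGs and 18.5% at an unadjusted p under 0.05, while DESeq2 called 238 genes of the whole table. Log2 fold changes in *WSD* were -0.74 ± 0.54 for *KRT8*, -0.93 ± 0.55 for *KRT18* and -0.997 ± 0.47 for *KRT19*, with adjusted p of 0.476, 0.369 and 0.260 (edgeR). The junction genes stood at -1.27 ± 0.73 for *TJP3*, -0.71 ± 0.44 for *CLDN1*, -1.0 ± 0.51 for *CDH1* and -0.01 ± 0.10 for *CLDN15*. None of these passed the threshold, and for all but *CLDN15* the standard errors leave room for differences of 2-fold.

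For testosterone, edgeR called 0 of 9 members, 0 had an unadjusted p under 0.05, and DESeq2 called 0. Among all tested genes edgeR gave 0% DEGs and 8.63% at an unadjusted p under 0.05, and DESeq2 called 7 genes of the whole table. *KRT7* had the one positive value, 1.31 ± 0.84 on the log2 scale (edgeR adjusted p = 0.664), carried by the animals at 17.2, 9.97 and 5.38 CPM. The other members lay between -1.25 (*TJP3*) and -0.19 (*CLDN15*). For *TJP3* and *MISP* the sign depended on the library set, with 0.16 and 0.71 in the 16 libraries and -1.25 and -0.21 in all 24.

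**Figure D2:**
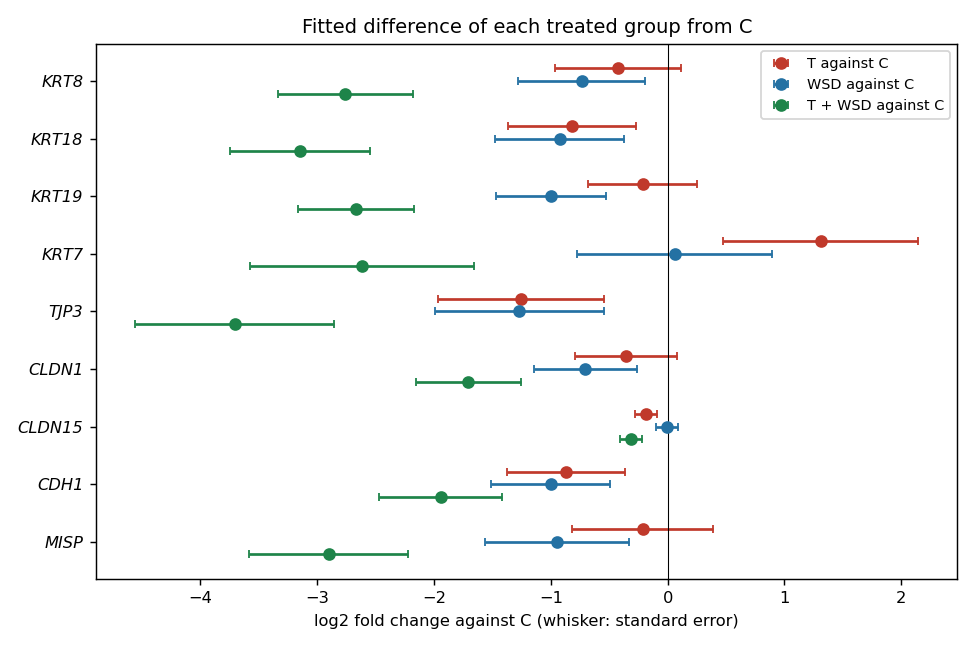
Log2 fold changes of *T*, *WSD* and *T* + *WSD* against *C* from 1 edgeR fit of 24 animals (points) with their standard errors (whiskers), 1 line of genes per row. The *T* + *WSD* points of all genes but *CLDN15* lie between -3.70 and -1.70, to the left of both single treatments, which share the *C* animals with them and with each other.

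Adding the diet to testosterone (*T* + *WSD* against *T*) was compared next. One arm is the *T* + *WSD* animals, whose low levels against *C* the choice of members used, so lower values here are partly fixed by that choice and the counts are not independent evidence. In edgeR 5 of 9 members met the DEG definition, all lower, against 1.43% of all tested genes lower. In edgeR's quasi-likelihood test, the log2 fold change was -2.45 ± 0.49 for *KRT19* (adjusted p = 0.00957), -2.33 ± 0.57 for *KRT8* (0.0226), -2.33 ± 0.58 for *KRT18* (0.0248), -3.93 ± 0.98 for *KRT7* (0.0250) and -2.69 ± 0.68 for *MISP* (0.0257). The 5 include all 4 keratins analysed, and 8 of 9 members had an unadjusted p under 0.05 in the lower direction against 14.3% of tested genes. *KRT19* alone did not overlap between these groups, where 3.10% of tested genes were separated that way. The junction genes did not pass in edgeR, with -2.45 ± 0.84 for *TJP3* (adjusted p = 0.0752), -1.34 ± 0.45 for *CLDN1* (0.0669), -1.08 ± 0.51 for *CDH1* (0.190) and -0.13 ± 0.10 for *CLDN15* (0.418). DESeq2 called 7 of 9, the same 5 with *TJP3* (-2.50, adjusted p = 0.0273) and *CLDN1* (-1.33, adjusted p = 0.0282). In the whole table DESeq2 called 1090 genes in either direction here, where edgeR called 574. Of the 5, only *KRT19* kept its call whichever animal was left out. *KRT8* lost it without *T* animal 13 or *T* + *WSD* animal 10, *KRT18* without *T* + *WSD* animal 8 or 10, *KRT7* without *T* animal 15 or *T* + *WSD* animal 8, 9 or 12, and *MISP* without *T* animal 18 or *T* + *WSD* animal 7, 8, 9 or 12, with adjusted p between 0.05 and 0.0684. *TJP3* passed without *C* animal 1 (-2.43), and *CLDN1* without *WSD* animal 19 or 21 (-1.35 each). In the 16 libraries only *MISP* passed, at -2.78, and *KRT19* stood at -1.91 (adjusted p = 0.0586).

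Adding testosterone to the diet (*T* + *WSD* against *WSD*) gave values of the same sign, with adjusted p between 0.0507 and 0.314, and the same limit on what the counts can show. In edgeR 0 of 9 members were DEGs, against 0.381% of genes lower, and 8 of 9 had an unadjusted p under 0.05 in the lower direction, against 12.1% of all tested genes. DESeq2 called 6, namely the 4 keratins, *TJP3* and *MISP*. In the whole table DESeq2 called 431 genes in either direction here, where edgeR called 124. The log2 fold changes were -2.22 ± 0.58 for *KRT18* (edgeR adjusted p = 0.0507), -2.02 ± 0.56 for *KRT8* (0.0637) and -1.67 ± 0.48 for *KRT19* (0.0690). *TJP3* stood at -2.44 ± 0.85 and its CPM values did not overlap between the groups, with all 6 *T* + *WSD* animals lower. This separation is not resolved. The 0 reads of *T* + *WSD* animal 8 allow up to 0.848 CPM, above the lowest *WSD* level of 0.482. *CLDN15* also did not overlap, at -0.31 ± 0.10, and 1.37% of tested genes were separated in this direction. *WSD* animal 21, the lowest of its group in 7 of 9 members, weighed on this comparison, and without it *KRT8* (-2.26), *KRT18* (-2.46) and *KRT19* (-1.88) passed. *KRT18* also passed without *C* animal 1 (-2.20), *C* animal 4 (-2.22) or *T* animal 16 (-2.22).

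The comparison of *WSD* with *T* sets against each other none of the animals behind the choice of members, although the shared fit took its filter and spread from all 4 groups. EdgeR's quasi-likelihood test called 0 of 9, 0 had an unadjusted p under 0.05 and DESeq2 called 0. Among all tested genes edgeR gave 0% DEGs and 9.81% at an unadjusted p under 0.05, and DESeq2 called 36 genes of the whole table. Adjusted p ran from 0.568 to 0.997, and edgeR also called 0 of 9 with only these 2 groups in the fit. The keratins stood at -0.31 ± 0.54 (*KRT8*), -0.11 ± 0.55 (*KRT18*), -0.78 ± 0.47 (*KRT19*) and -1.25 ± 0.84 (*KRT7*), all within 2 standard errors of 0.

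Whether the treatments did more together than their log2 effects added up was tested with the interaction term, called at an adjusted p under 0.1. All 9 members had negative values, from -3.99 (*KRT7*) to -0.08 (*CDH1*), where 52.2% of all tested genes were negative. EdgeR called 0 of 9, 3 had an unadjusted p under 0.05, and DESeq2 called 1, against 0.809% of all tested genes called by edgeR and 13.5% at an unadjusted p under 0.05. The 3 were *KRT7* (-3.99 ± 1.27, adjusted p = 0.172), *KRT8* (-1.60 ± 0.77, adjusted p = 0.370) and *KRT19* (-1.45 ± 0.66, adjusted p = 0.338). *KRT7* was the gene called by DESeq2, at -4.09 (adjusted p = 0.0498), and edgeR called it without *WSD* animal 21 (-4.23, adjusted p = 0.0877). DESeq2 called 481 genes of the whole table for this term, where edgeR called 123. The interaction contrast contains the *T* + *WSD* and *C* animals, which the choice of members used.

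The animals within a group also differed, and the members tended to be high or low in the same animals. *T* + *WSD* animal 8, the shallowest library outside the unnamed RNA, was the lowest of its group in 8 of 9 members, tied with animal 12 in *TJP3*. In *KRT7*, *TJP3* and *MISP* it held 0 reads, which allows up to 0.848 CPM, so its rank in these is not resolved. Without animal 8, 7 of 9 members still met the DEG definition against *C*. *WSD* animal 21 and *T* animal 16, both from deep libraries, were the lowest of their groups in 7 of 9. *WSD* animal 23 was the highest of its group in all 4 keratins, and *T* animal 18 in *TJP3*, *CLDN15*, *CDH1* and *MISP*. To describe this apart from the treatments, log2 CPM was centred on the group mean, which removes the differences that the choice of members used.

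*KRT8* and *KRT18*, the filament partners, moved together most closely. Over the 24 animals Pearson's r was 0.920 and Spearman's rho 0.854, each with a two-sided permutation p = 1e-05, the smallest that the 100000 resamples within groups can give. The adjusted p over the 45 relations computed was 0.0003 for r and 0.00045 for rho. Without the 2 animals farthest from the median of *KRT8*, r was 0.828, and in the 16 libraries r was 0.902. Their read counts stood in a ratio of 2.09 ± 0.674 over all animals (SD, n = 24), from 0.938 to 4.00, with means of 1.98 in *C*, 2.06 with testosterone, 1.79 on the diet and 2.51 under both. In the RefSeq annotation T2T-MMU8v2.0, a different assembly from the one the reads were aligned to, the 2 genes are neighbours, with 2 rows between them and 0 of these protein-coding. *KRT8*, *KRT18* and *KRT19* have many processed pseudogenes in primate genomes, and how reads shared with them were counted is not given in the sources used here.

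*KRT19* followed the pair, with r of 0.906 to *KRT8* and 0.851 to *KRT18*, and *KRT7* more loosely, with 0.640 to *KRT8* and 0.572 to *KRT18*. Without the 2 animals farthest from the median these r were 0.799, 0.675, 0.556 and 0.566 in that order. Of the junction genes *CLDN1* was nearest to *KRT8*, at 0.770 and 0.576 without those animals. With *KRT18* it had 0.637, and 0.317 without the 2 farthest animals, and with *KRT7* 0.209. Between other junction genes and *MISP*, r was 0.663 for *TJP3* and *MISP*, 0.660 for *CDH1* and *MISP*, and 0.533 for *TJP3* and *CDH1*, which became 0.514, 0.610 and 0.300 without the 2 farthest animals. *CDH1* and *MISP* stood as near to some keratins, with r of 0.578 for *CDH1* and *KRT19* and 0.660 for *MISP* and *KRT18*. Their lowest r with a keratin were 0.018 and 0.346, both with *KRT7*. *TJP3* and *CLDN1*, although both tight junction genes, had r of -0.08. Across the 36 pairs, r had a median of 0.401, 35 were positive and 16 had an adjusted p under 0.05. The members share libraries, and their r with log2 depth, centred the same way, ran from -0.13 (*CLDN15*) to 0.496 (*MISP*). *CLDN15* had the lowest median r with the other members, 0.250, while its second identifier had r of 0.739 with *CDH1* and 0.731 with *TJP3*.

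**Figure D3:**
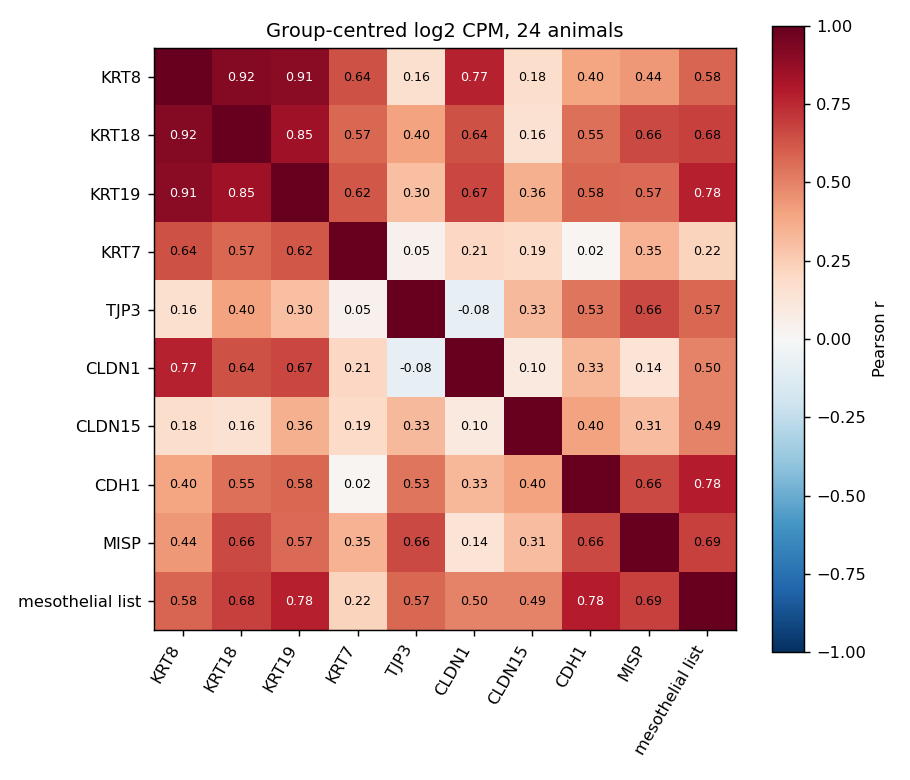
Pearson r between log2 CPM values centred on group means, over 24 animals, for the 9 genes and the mean of 9 mesothelial genes (colour from -1 to 1, value printed in each cell). *KRT8*, *KRT18* and *KRT19* hold the highest values, 0.85 to 0.92, and *TJP3* and *CLDN1* the lowest, -0.08.

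Genes outside the set whose centred levels were most like the mean of the members were *TEX55* (r = 0.946), *EZR*, which links the membrane to actin in microvilli (0.896), *TRNP1* (0.890), *LSR*, a protein of tricellular tight junctions (0.869), *BICDL1* (0.867), the protease inhibitor *TIMP1* (0.862), the mesothelial gene *UPK3B* (0.858), *TRIM29* (0.857), *EPS8L2*, a relative of the actin regulator *EPS8* (0.854), and *CDCP1* (0.850). These are the 10 highest of 15207 genes over 24 animals, a ranking with no test.

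Mesothelial markers moved with the members. Of 12 listed markers 9 were in the table and tested. In *T* + *WSD* against *C* 7 of the 9 were DEGs, all lower (*MSLN*, *UPK3B*, *WT1*, *BNC1*, *ITLN1*, *GPM6A* and *PKHD1L1*), where 5.29% of all tested genes were called lower. The median log2 fold change of the 9 was -2.02 against -0.04 over all genes. Of the 9, 8 had a log2 fold change below 0. The summed level of the 9 ran from 2453 to 39430 CPM in *C*, 2594 to 17740 in *T*, 791 to 6079 in *WSD* and 289 to 3240 in *T* + *WSD*, and none was at 0 in all animals. Most of this sum was *ITLN1*, with a mean of 10259 of 11912 CPM in *C* and 1058 of 1395 CPM in *T* + *WSD*. *MSLN*, the mesothelial surface protein mesothelin, had 527 ± 606 CPM in *C* and 65.9 ± 49.9 in *T* + *WSD* (SD, n = 6). The group-centred levels of the members had r of 0.222 (*KRT7*) to 0.784 (*CDH1*) with the mean of the list, and 7 of 9 had a permutation p, adjusted over the 45 relations, under 0.05. Without the 2 animals farthest from the median, these r ran from 0.191 (*KRT8*) to 0.743 (*CDH1*), so that of *KRT8*, 0.579 over all animals, rests on those animals. The second *CLDN15* identifier had r of 0.815 with the list over all animals, against 0.494 for the one used. The part of mesothelial content in the members' differences was not tested.

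The members were then set against the list within each animal, as log2 CPM of the gene minus the mean log2 CPM of the 9 markers. That mean was 6.69 in *C*, 6.23 with testosterone, 5.97 on the diet and 4.86 under both. *CLDN1* and *CDH1* differed from *C* in *T* + *WSD* by -0.02 and -0.13 on this relative scale, that is, with all 9 markers and 24 libraries they were lower by about as much as the list. *KRT18* (-1.64), *KRT8* (-1.29), *KRT19* (-1.12), *MISP* (-0.98), *KRT7* (-0.93) and *TJP3* (-0.75) were lower than the list by that much, and *CLDN15* was higher, by 1.52. The second *CLDN15* identifier was higher by 0.24, so the size for *CLDN15* depends on the identifier taken. On this scale the *KRT8* values of single animals overlapped, from -0.235 to 1.56 in *C* and from -1.98 to 0.815 in *T* + *WSD*. Set against *MSLN* and *UPK3B* alone, *KRT18* stood at -0.85, *KRT8* at -0.50, *KRT19* at -0.33, *MISP* at -0.19 and *KRT7* at -0.13. On the same scale *TJP3* stood at 0.0445, *CDH1* at 0.66, *CLDN1* at 0.77 and *CLDN15* at 2.31. *LRRN4*, the other marker planned for this, was not analysed here. The direction for *TJP3*, *CDH1* and *CLDN1* and the size for the others therefore depend on the markers taken. With a prior count of 0.5 the rarer genes moved, *MISP* to -1.43, *KRT7* to -1.53 and *TJP3* to -1.54. In the 16 libraries, against all 9 markers, the values were -1.2 for *KRT7*, -1.05 for *KRT18*, -0.94 for *KRT19* and -0.92 for *KRT8*. *MISP* and *TJP3* both stood at -0.37 there, *CLDN1* at -0.11, *CDH1* at 0.48 and *CLDN15* at 1.15. These values are a description without a test, since list and members come from the same contrast.

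**Figure D4:**
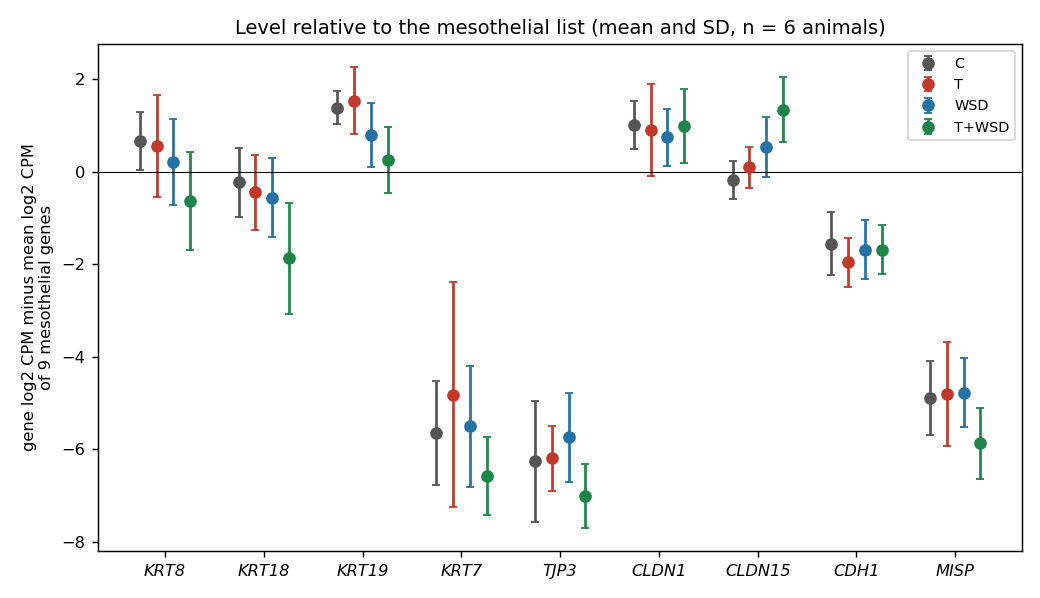
Log2 CPM of each gene minus the mean log2 CPM of 9 mesothelial markers in the same animal, as group means (points) with SD (whiskers, n = 6). The *T* + *WSD* points of *KRT8*, *KRT18* and *KRT19* differ from those of *C* by -1.64 to -1.12, those of *CLDN1* and *CDH1* are level with *C*, and that of *CLDN15* is 1.52 above. The second *CLDN15* identifier, not drawn, is 0.24 above.

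Markers of other epithelia were low and gave no call. Of 15 listed genes for non-mesothelial epithelium 14 were in the table, 5 were tested and 0 were DEGs in *T* + *WSD* against *C* by edgeR. Of all tested genes 5.29% were called lower there and 4.72% higher. Their summed level was 10.2 to 20.4 CPM in *C* and 10.1 to 16.4 in *T* + *WSD*, and *KRT20*, an intestinal keratin, was at 0 in all 24 libraries. Of 3 pancreatic acinar genes in the table none passed the filter on low counts, with *PRSS1* at 0 throughout. Among markers of the other cells of the depot no gene was called lower. *LEP* and *FABP4* were the DEGs among 7 adipocyte genes, both higher, and 5 of 6 endothelial genes were DEGs, also higher. Among all tested genes 4.72% were called higher. *PECAM1*, for example, was higher by 0.88 ± 0.16 on the log2 scale (edgeR adjusted p = 0.00295). The summed adipocyte level was 2661 to 13854 CPM in *C* and 13507 to 20918 in *T* + *WSD*. One DEG each, *DPT* and *TAGLN*, was higher among 6 fibroblast and 5 smooth muscle genes, and 0 of 5 macrophage genes were DEGs. The part of these shifts in the members' differences was not tested either.

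The wider junction machinery was surveyed in lists of other family members and partners, in *T* + *WSD* against *C*, where 5.29% of all tested genes were called lower and 4.72% higher. Nothing is read from a list with 1 call. Few other keratins were detected, with 4 of 37 in the table passing the filter. Of these 4, *KRT222*, a keratin-like protein, was the DEG, lower by a log2 fold change of -2.12 ± 0.55 (edgeR adjusted p = 0.0129). *KRT222* was rare, at 1.87 ± 1.32 CPM in *C* and 0.399 ± 0.273 in *T* + *WSD*. *KRT10*, the type I keratin of the upper epidermis, stood at 10.8 ± 1.55 CPM in *C* and 10.1 ± 0.92 in *T* + *WSD*. Of 4 other claudins tested, *CLDN5*, the claudin of endothelium, was higher (0.72 ± 0.24, edgeR adjusted p = 0.0468), from 12 ± 3.98 CPM in *C* to 19.6 ± 3.62 in *T* + *WSD*.

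Among 16 tight junction membrane and scaffold genes, 8 were lower and 1 was higher, against 5.29% and 4.72% of all tested genes, with a median log2 fold change of -0.59 against -0.04 for all genes. The lower ones were *OCLN* (occludin), the cingulins *CGN* and *CGNL1*, the polarity genes *PARD6B*, *PRKCI*, *PRKCZ* and *PATJ*, and the adhesion receptor *CXADR*, and the higher one was *JAM2*. *CXADR* had a log2 fold change of -2.45 ± 0.45 (edgeR adjusted p = 0.00296), from 57.7 ± 43.6 to 10.3 ± 4.43 CPM, and *CGN* one of -1.85 ± 0.38 (adjusted p = 0.00483). *TJP1*, which encodes the broadly expressed scaffold ZO-1, did not pass, at -0.37 ± 0.17.

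In the adherens junction list 1 of 11 genes was lower, beside 5.29% of all tested genes, and the median was -0.12. That gene was *CDH3* (P-cadherin), at 52.4 ± 49.3 CPM in *C* and 7.88 ± 3.90 in *T* + *WSD*, a log2 fold change of -2.68 ± 0.60 (edgeR adjusted p = 0.00681). The catenin genes *CTNNB1* and *CTNNA1* stood at -0.22 ± 0.10 and -0.12 ± 0.09 and did not pass. Of 14 desmosome and hemidesmosome genes 4 were lower and 1 higher, with a median of -0.38. *DSP* (desmoplakin), which anchors keratin filaments at desmosomes, went from 574 ± 371 to 133 ± 63.0 CPM, a log2 fold change of -2.11 ± 0.45 (edgeR adjusted p = 0.00542). The desmosomal cadherins *DSG2* and *DSC3* were lower too, at -1.97 ± 0.41 and -1.58 ± 0.51, as was *EVPL*, while *ITGA6* was higher. *DSP*, *DSG2* and *EVPL* were also DEGs in *T* + *WSD* against *T*.

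Of 12 microvillus and cortical actin linkers 5 were lower, with a median of -0.91. *EZR* (ezrin) went from 542 ± 281 to 121 ± 47.4 CPM, a log2 fold change of -2.17 ± 0.37 (edgeR adjusted p = 0.00295), and was also a DEG against *WSD* and against *T*. Its close relatives *MSN* and *RDX*, which are not restricted to epithelia, stood at 0.20 ± 0.14 and -0.22 ± 0.12. Of 8 epithelial transcription and splicing regulators 1 was a DEG, *ESRP2*, at -2.65 ± 0.70 on the log2 scale, and the list's median was positive, 0.45. *ESRP2* was rare, at 3.63 ± 4.16 CPM in *C* and 0.505 ± 0.499 in *T* + *WSD*. *EHF* stood the other way, at 2.08 ± 0.76 (edgeR adjusted p = 0.0627), from 1.21 ± 1.18 to 5.03 ± 4.33 CPM. It was a DEG, higher, in *T* + *WSD* against *T*. Among 10 mesenchymal genes *CDH11* was lower and *TWIST2* higher. *VIM*, the vimentin gene and an intermediate filament of mesenchymal and mesothelial cells, had 1951 ± 335 CPM in *C* and 1863 ± 145 in *T* + *WSD* (-0.07 ± 0.11). With either treatment alone against *C*, edgeR called 0 genes in each of these lists, as it did in the whole table.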

How the data were processed

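Raw read counts per Ensembl gene were deposited by the authors for 24 RNA-seq libraries of omental WAT (TruSeq Ribo-Zero, single-end reads). Per the submitters' processing notes and the study's methods, reads were checked with FastQC 0.11.5, trimmed with Trimmomatic 0.36, aligned to rheMac8 with STAR 2.5.2b and compared with DESeq2 1.18.1. The counting tool, its annotation and its strand setting are not given in the sources used here, so overlapping or antisense genes cannot be separated.

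Counts were used as deposited. Symbols came from a gene name table (17621 identifiers) and, where it had none, from the study's supplementary lists (205). For a symbol with several identifiers, the one with the most counts was taken. *KRT5* was not analysed here, so 36 pairs of 9 members and 9 relations to the mesothelial list were computed in place of the larger number planned. No sequence or coordinate is given, because the annotation at hand is of another assembly.

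EdgeR 4.0.16 (R 4.3.3) was fitted once to the 4 groups with TMM scaling, the expression filter at a minimum count of 10 (total 15) and the robust quasi-likelihood test, with Benjamini-Hochberg adjustment over 15207 genes. DEGs needed a fold change over 1.5 and an adjusted p under 0.05, and the interaction an adjusted p under 0.1 without a fold limit. Log2 CPM used a prior count of 2. DESeq2 1.42.0, other scalings and filters, library sets and leaving out each animal were alternatives. The members, lists and tests were chosen with earlier results of these data known. Named genes were the members, in each list the 3 with the highest level and the 3 with the largest called change, and the 10 most like the members. The lists share some genes, such as *CLDN5*, *CLDN7* and *KRT20*. Genes named as called in a list beyond these were added to complete its count. The labels name animals, so p-values measure the spread between animals.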

Additional observations from a re-analysis of the deposited data

Results flagged for a closer look

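Of 36 groups of 6 animals examined (9 genes in 4 groups), 3 had an animal whose gap to the nearest other exceeded Dixon's limit for 6 values as a share of the group's range, which chance exceeds in about 1 group in 20. *TJP3* stood at 10.9 CPM in *C* animal 1, whereas the other 5 controls lay between 0.439 and 3.14 CPM. *CDH1* stood at 61.0 CPM in *T* animal 18, where the other 5 ran from 9.84 to 27.1 CPM. It also stood at 25.0 CPM in *T* + *WSD* animal 11, where the other 5 ran from 3.11 to 10.9 CPM.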

How the results depend on the processing

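No paired analysis was possible because the groups share no replicate numbers in the labels. Members called in *T* + *WSD* against *C* numbered 7, 8 with DESeq2 or the second *CLDN15* identifier (chosen after seeing the data), 0 in the 16 libraries and 6 to 8 with 1 animal left out, the lowest without *C* animal 1 (*CDH1* lost) and the highest without *T* + *WSD* animal 10 (*KRT7* gained). With only these 2 groups in the fit *KRT7* was gained and *TJP3* was not tested. In *T* + *WSD* against *WSD* the count was 0, 6 with DESeq2 and 0 to 3 with 1 animal left out, and in *T* + *WSD* against *T* it was 5, 7 with DESeq2, 1 in the 16 libraries and 2 to 6. The interaction gave 0, 1 with DESeq2 and 0 to 1. The remaining counts stayed at 0 under every alternative run, and the *KRT8* to *KRT18* correlation stayed between 0.828 and 0.936. Over the whole table DESeq2 called 1894 genes in *T* + *WSD* against *C*, where edgeR called 1522. It called 238 in *WSD* against *C*, 7 in *T* against *C* and 36 in *WSD* against *T*, where edgeR called 0. In *T* + *WSD* against *WSD* DESeq2 called 431 and edgeR 124, and in *T* + *WSD* against *T* 1090 and 574. For the interaction the numbers were 481 with DESeq2 and 123 with edgeR. The cause of these changes was not tested.

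Signs turned only for values that passed no threshold. In the 16 libraries, log2 fold changes were 0.0569 for *CLDN15* in *WSD* against *C*, 0.16 for *TJP3* and 0.71 for *MISP* in *T* against *C*, 0.26 for *KRT8* and 0.16 for *KRT18* in *WSD* against *T*, and 0.29 for *CLDN1* in the interaction. *CLDN15* in *WSD* against *C* was 0.00108 without the filter, and *TJP3* in *WSD* against *T* was 0.0113 with DESeq2. With 1 animal left out, *WSD* against *C* ran from -0.52 to 0.31 for *KRT7*, -1.5 to 0.0349 for *TJP3* and -0.0722 to 0.0445 for *CLDN15*. *T* against *C* ran from -1.69 to 0.0439 for *TJP3* and -0.87 to 0.42 for *MISP*. *WSD* against *T* ran from -0.65 to 0.0163 for *KRT8*, -0.41 to 0.13 for *KRT18*, -0.19 to 0.42 for *TJP3* and -0.43 to 0.42 for *CDH1*, and the interaction from -0.52 to 0.47 for *CDH1*. Depth limits *TJP3*, *KRT7* and *MISP* most, since each has libraries without a read.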
